A study of Mus musculus with 18 samples.

Results

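The genes described here are the 2 cytosolic HSP90 isoforms, Hsp90aa1 and Hsp90ab1, and 8 of their co-chaperones, Ahsa1, Stip1, Cdc37, Fkbp4, Fkbp5, Ptges3, Chordc1 and Ppid. They were taken by symbol from a table of read counts that lists 24421 genes, and all 10 members were found and passed the filter on low counts. The series holds 3 cell populations: 4T1, a line of mammary carcinoma cells from BALB/cfC3H mice labelled wild type, and 4T1R1 and 4T1R2, populations of 4T1 selected independently for resistance to 17-DMAG. 17-DMAG is a geldanamycin derivative that binds the ATP pocket of HSP90. Each population was sequenced without the drug in the final step and after exposure to 1.5 µM 17-DMAG, in 3 libraries for each of the 6 groups. The sample records give 48 h for that exposure, whereas the series text gives 2 h, and the counts do not settle which is right. The records describe the selection as 3 rounds of 1.5 µM for 48 h, and the series text describes cycles of 1 µg/ml for 24 h followed by growth without the drug. The untreated libraries of 4T1R1 and 4T1R2 thus come from cells that had met the drug before, and neither population is stated to be a single clone.

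HSP90 is a dimeric ATP-dependent chaperone that finishes the folding of kinases, steroid hormone receptors and other client proteins. Co-chaperones bind it at successive steps of its ATP cycle: STIP1 hands clients over from HSP70, CDC37 brings in kinases, AHSA1 speeds ATP hydrolysis, PTGES3 (p23) holds the closed form, and FKBP4, FKBP5 and PPID join late complexes with steroid receptors. Inhibition of HSP90 is known to free the transcription factor HSF1, which binds heat shock elements, runs of the unit GAA and its complement TTC in alternating orientation, and raises transcription of chaperone genes. Hsp90aa1 is known as the stress-inducible isoform and Hsp90ab1 as the constitutive one. The comparisons below ask how the transcripts of this machine respond to a drug directed at it, and how that response looks in cells selected with the drug.

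RefSeq promoter windows of GRCm38.p6, 250 bases before to 50 bases after a gene's start, were found for 7 of the 10 members, and not for Hsp90aa1, Hsp90ab1 and Ppid. They were searched for 3 alternating units, TTCNNGAANNTTC or GAANNTTCNNGAA, and for 2 units, TTCNNGAA or GAANNTTC. Each pair is its own reverse complement, so both strands are covered, and every 3-unit match also holds 2-unit matches. Of 32851 windows, 0.603% held a 3-unit match and 15.1% a 2-unit match. Chordc1 had 3 overlapping 3-unit matches at positions -4 to 9, 2 to 14 and 7 to 19, where position 1 is the start of the RefSeq gene, and 5 matches of 2 units. Fkbp4 had a 2-unit match at -151 to -144 and Cdc37 one at -170 to -163. No match was found in the windows of Ahsa1, Stip1, Fkbp5 and Ptges3. The Fkbp5 window covers chromosome 17, 28486100 to 28486399. The outer start of that gene in GENCODE vM21, at 28517527 on the minus strand, lies outside the window and was not searched. The outer GENCODE start of Ahsa1, at 87266479 on the plus strand, lies at the edge of its window, 87266478 to 87266777. Sequence upstream of that window was not searched. The GENCODE start of Stip1, at 7039967 on the minus strand, lies outside its window, 7039977 to 7040276. The stretches that hold the matches are shown for the genes with a match. Of these, Chordc1 rose strongly with 17-DMAG, Fkbp4 rose less, and Cdc37 did not rise in any population. Ahsa1 and Stip1, without a match in the windows searched, rose more than Fkbp4 in 4T1, and Ptges3, also without one, rose in all populations. A link between matches and response was not tested. Capitals mark the 2-unit matches, and each sequence reads 5′ to 3′ on the strand of its gene.
Chordc1, chr9:18292207-18292291, plus strand: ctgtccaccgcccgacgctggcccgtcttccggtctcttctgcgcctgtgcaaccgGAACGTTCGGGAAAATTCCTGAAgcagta
Fkbp4, chr6:128438756-128438846, minus strand: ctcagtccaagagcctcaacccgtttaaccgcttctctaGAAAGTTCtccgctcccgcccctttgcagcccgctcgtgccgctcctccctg
Cdc37, chr9:21150054-21150144, minus strand: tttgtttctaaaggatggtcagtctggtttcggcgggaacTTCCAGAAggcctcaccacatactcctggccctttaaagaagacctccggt
In Chordc1 4 of the 2-unit matches chain into 1 run across the start, and the fifth, at 34 to 41, lies past the printed stretch. Fkbp4 and Cdc37 each hold a single 2-unit match. A match of letters is not evidence of binding.

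Library totals ran from 23354461 to 55094630 counts. Among the treated 4T1 libraries, replicates 1 and 2 had a chi-square per gene of 1.1, against 2.04 to 2.22 in the 17 other pairs. They differed by less than sampling noise and may not come from separate cultures. Their mean was used as 1 sample, so n = 2 in that group and n = 3 in the others. The names of the 4T1R1 libraries form a number run apart from those of 4T1 and 4T1R2, so where 4T1R1 differs from either of the other populations, the population and the run cannot be told apart. Of 7 epithelial markers, 6 were detected and Krt5 was at or under 3 counts in every library. Their summed level differed by population, at 2000 to 2030 CPM in untreated and 1920 to 1930 CPM in treated 4T1, 1390 to 1450 and 1380 to 1420 CPM in 4T1R1, and 1580 to 1610 and 1600 to 1630 CPM in 4T1R2. Single epithelial markers went in both directions. At an adjusted p under 0.05, 1 was higher and 4 lower in untreated 4T1R1 than in untreated 4T1, and 2 and 3 in untreated 4T1R2. Over all genes the shares were 25.2% and 27.5% for 4T1R1, and 25.6% and 26.9% for 4T1R2. The sum of 6 fibroblast markers, 3 of them at or under 3 counts in every library, went with the drug from 21.9 to 24.2 CPM down to 12.5 to 13.1 CPM in 4T1, from 26.8 to 28.7 CPM to 22.7 to 24.6 CPM in 4T1R1, and from 29.6 to 33.4 CPM to 25.6 to 29 CPM in 4T1R2. Sums over all libraries were 0.683 to 1.64 CPM for leukocyte and 0.139 to 0.569 CPM for endothelial markers. The part of these marker levels in the differences between groups was not tested. Levels are CPM, that is, counts scaled to the library size after TMM. Fold changes are log2 values from edgeR's quasi-likelihood fit of all 6 groups, given with the standard error (SE) and with a p adjusted by Benjamini-Hochberg over 13507 genes, and a gene was called at an adjusted p under 0.05. In bulk RNA a change in the RNA of each cell and a change in the mix of cells cannot be told apart.

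In 4T1 cells 8 of the 10 members rose with 17-DMAG and none fell, against 18.4% of all genes tested called higher and 17.9% called lower. The median log2 change of the members was 0.942, and that of all genes was 0.00064. In 4T1R1 8 members rose and 1 fell, with 13.9% of all genes called higher and 14.3% lower and a median over the members of 0.625. In 4T1R2 9 members rose and none fell, with 6.18% of all genes higher and 4.35% lower and a median of 0.445. By DESeq2, and at an unadjusted p under 0.05 in edgeR, the count of members that fell in 4T1 and in 4T1R2 was also 0. The isoforms and Ahsa1, Stip1, Fkbp4, Ptges3, Chordc1 and Ppid rose in all 3 populations, whereas Cdc37 and Fkbp5 stood apart. For scaling by total counts alone, the median of all genes moved by -0.11 in 4T1, by 0.033 in 4T1R1 and by -0.046 in 4T1R2. The calls over all genes then became 8.83% higher and 32.0% lower in 4T1, 17.4% and 9.74% in 4T1R1, and 2.72% and 8.48% in 4T1R2, while the members' counts stayed at 8 and 0 and at 8 and 1, and went to 8 and 0 in 4T1R2.

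**Figure D1:**
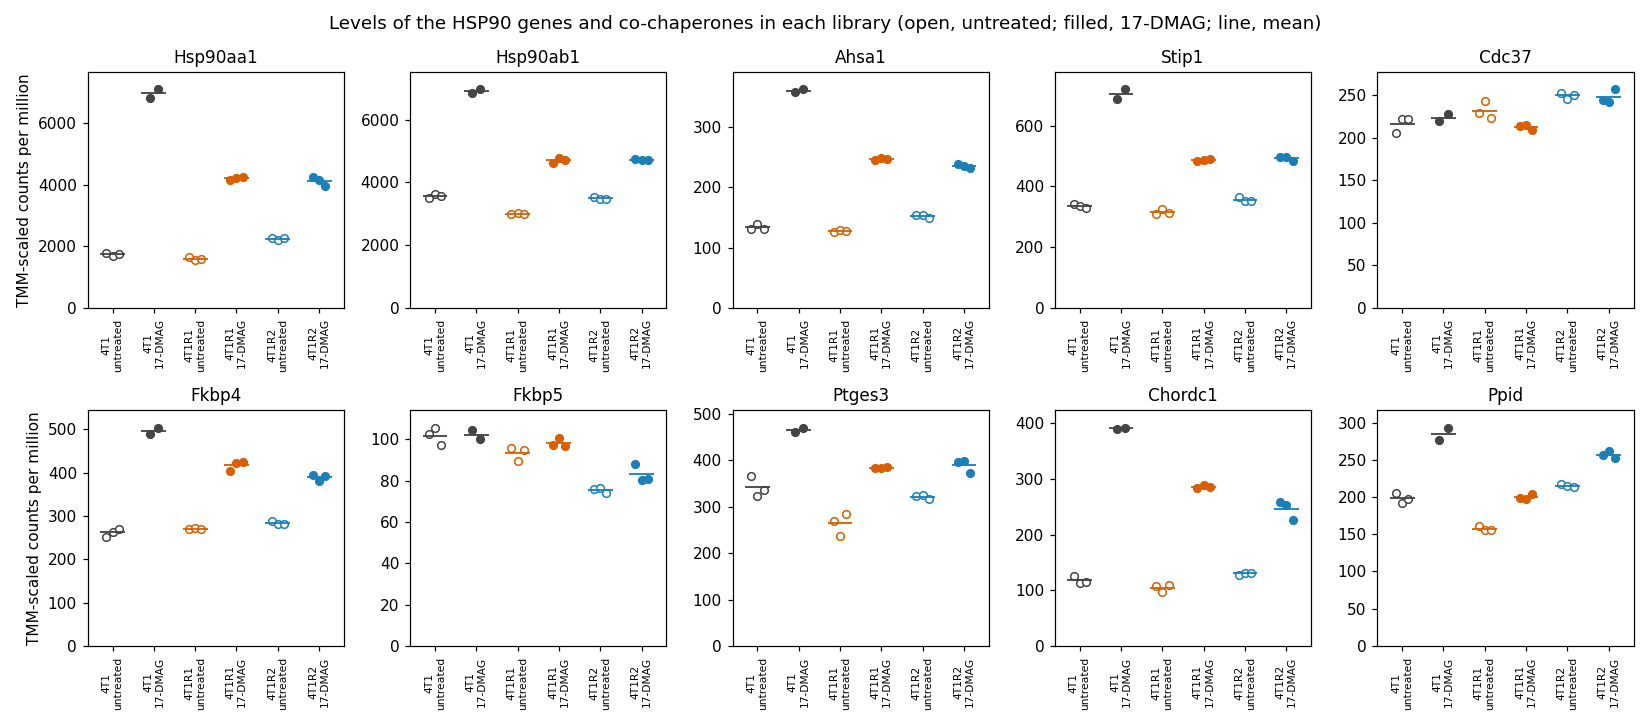
Levels of the 10 genes in CPM scaled by TMM (vertical axes, from 0) in each of the 17 libraries, with the 6 groups along the horizontal axes, open circles for untreated and filled circles for treated libraries, and a line at each mean. For 8 genes both treated 4T1 samples lie above every library of the other groups, and Cdc37 and Fkbp5 are the exceptions. The share of all genes tested with such an order was not counted.

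Hsp90aa1 (ENSMUSG00000021270.13, chromosome 12, 110690605 to 110702728, minus strand, GRCm38) encodes the inducible isoform and showed the largest response of the members in 4T1. Its level was 1782, 1685 and 1756 CPM in untreated 4T1 and 6830 and 7096 CPM after 17-DMAG. The untreated 4T1R1 libraries stood at 1633, 1538 and 1596 CPM and the treated ones at 4161, 4198 and 4254 CPM. In 4T1R2 the values were 2273, 2204 and 2252 CPM untreated and 4258, 4161 and 3955 CPM treated. Every treated library thus lay far above the untreated libraries of its population. The treated 4T1R1 and 4T1R2 libraries overlapped each other, and all 6 stayed below treated 4T1. The rise was 4-fold in 4T1 (log2 2.00 ± 0.0275 SE, adjusted p = 5e-40), 2.65-fold in 4T1R1 (1.40 ± 0.0253, adjusted p = 2.49e-35) and 1.84-fold in 4T1R2 (0.88 ± 0.0250, adjusted p = 8.27e-28). The rise was smaller than in 4T1 by 0.60 ± 0.0371 log2 units in 4T1R1 (adjusted p = 3.66e-16) and by 1.12 ± 0.0370 in 4T1R2 (adjusted p = 2.43e-25), and smaller in 4T1R2 than in 4T1R1 by 0.53 ± 0.0352 (adjusted p = 5.57e-14).

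Hsp90ab1 (ENSMUSG00000023944.14, chromosome 17, 45567775 to 45573271, minus strand) encodes the constitutive isoform. Its untreated 4T1 libraries held 3488, 3616 and 3555 CPM, and the treated ones 6864 and 6977 CPM. In 4T1R1 it stood at 3007, 3023 and 2980 CPM untreated and at 4632, 4788 and 4726 CPM treated. In 4T1R2 it stood at 3539, 3481 and 3459 CPM untreated and at 4749, 4723 and 4717 CPM treated. Here too the treated libraries of the selected populations overlapped each other and lay between the untreated and treated 4T1 levels. The rise was 1.95-fold in 4T1 (log2 0.96 ± 0.0215, adjusted p = 4.4e-32), 1.57-fold in 4T1R1 (0.65 ± 0.0196, adjusted p = 4.08e-27) and 1.35-fold in 4T1R2 (0.44 ± 0.0195, adjusted p = 1.05e-20). All 3 differences between these responses passed the threshold, at -0.31 ± 0.0292 for 4T1R1 minus 4T1 (adjusted p = 6.7e-11), -0.52 ± 0.0292 for 4T1R2 minus 4T1 (adjusted p = 5.39e-18) and -0.21 ± 0.0276 for 4T1R2 minus 4T1R1 (adjusted p = 1.51e-06).

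Per kilobase of exon, Hsp90ab1 was the more abundant isoform in every group, and the gap narrowed with the drug. The level of Hsp90aa1 divided by that of Hsp90ab1 went from 0.374 ± 0.017 (SD, n = 3) to 0.768 ± 0.012 (SD, n = 2) in 4T1. In 4T1R1 the ratio went from 0.404 ± 0.014 to 0.680 ± 0.0099, and in 4T1R2 from 0.490 ± 0.0068 to 0.665 ± 0.023 (SD, n = 3 each). The untreated 4T1 libraries reached 0.390 and those of 4T1R2 began at 0.483, so untreated 4T1R2 started from a higher share of the inducible isoform. Treated 4T1R1 and 4T1R2 overlapped, with 0.669 to 0.687 and 0.640 to 0.684. An exact permutation test of 3 against 3 libraries cannot go below p = 0.1, and none was run on this ratio. Per kilobase of coding sequence the ratio was higher throughout, from 0.484 in untreated to 0.994 in treated 4T1. Taken as a share of the TMM-scaled library, both isoforms made up 0.529% ± 0.0021 of counts in untreated 4T1 and 1.39% ± 0.027 in treated 4T1. The share was 0.459% ± 0.0042 and 0.892% ± 0.011 in untreated and treated 4T1R1, and 0.574% ± 0.0067 and 0.885% ± 0.017 in untreated and treated 4T1R2.

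**Figure D2:**
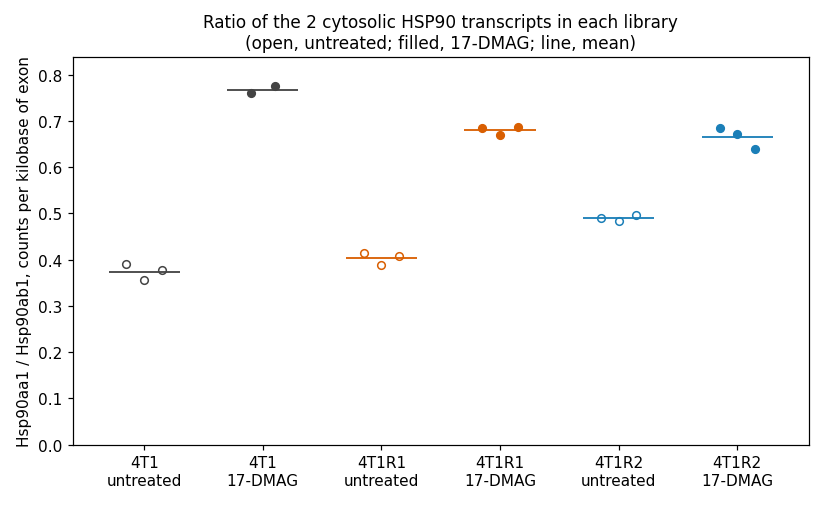
Hsp90aa1 over Hsp90ab1 in counts per kilobase of exon (vertical axis, from 0) for each library of the 6 groups (horizontal axis), open circles untreated, filled circles treated, lines for means. The ratio rises from 0.374 to 0.768 in 4T1 and from 0.490 to 0.665 in 4T1R2, and no treated library overlaps the untreated libraries of its population.

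The isoforms share 76.2% of their aligned coding bases. Hsp90aa1 has 4 further copies in the GENCODE vM21 transcripts that are at least 90% identical over 300 coding bases or more, among them the pseudogene Gm12346 at 99.5% identity, and Hsp90ab1 has 2. None of these is a row of the count table, and how reads with several matches were counted is not given in the sources used here, so the level of both isoforms is uncertain to that extent. Ptges3 has 2 such copies, 1 of them identical over the 480 aligned bases. Ppid has 5 matches of this kind. Among them is a stretch of 390 bases in the protein-coding gene Lamp3, a different gene, which is in the table with at most 8 counts. The other 6 members have none.

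Ahsa1 (ENSMUSG00000021037.7, chromosome 12, 87266479 to 87273998, plus strand), whose product activates the HSP90 ATPase, held 131.1, 138.7 and 131.1 CPM in untreated and 358.2 and 363.1 CPM in treated 4T1. In 4T1R1 it went from 126.4, 128.9 and 127 CPM to 246.3, 248.3 and 247.1 CPM, and in 4T1R2 from 153.7, 153.9 and 149.9 CPM to 238.3, 235.8 and 232.5 CPM. The 6 groups did not overlap at any step of their order, which ran from treated 4T1 through treated 4T1R1 and treated 4T1R2 to the untreated groups. The log2 change was 1.43 ± 0.0326 in 4T1 (adjusted p = 7.11e-32), 0.96 ± 0.0303 in 4T1R1 (adjusted p = 2.51e-26) and 0.63 ± 0.0301 in 4T1R2 (adjusted p = 1.23e-19). The response was lower than in 4T1 by a log2 difference of -0.48 in 4T1R1 and -0.80 in 4T1R2 (adjusted p = 6.81e-11 and 4.77e-18), and the 4T1R2 response was below that of 4T1R1 by -0.33 (adjusted p = 1.51e-06).

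Chordc1 (ENSMUSG00000001774.8, chromosome 9, 18292125 to 18317442, plus strand) encodes an HSP90-binding protein with zinc-binding CHORD domains, and its start region carries the chained GAA and TTC units printed above. It was found at 126.5, 112.8 and 115.7 CPM in untreated and at 390.6 and 392.6 CPM in treated 4T1. In 4T1R1 it was at 107.3, 97.68 and 109.2 CPM untreated and 283.2, 290.2 and 286.3 CPM treated. In 4T1R2 it was at 128.2, 131 and 131.9 CPM untreated and 258.5, 253.2 and 227.1 CPM treated. These are rises of 3.31-fold (log2 1.73 ± 0.0441, adjusted p = 3.68e-30), 2.73-fold (1.45 ± 0.0413, adjusted p = 5.6e-28) and 1.89-fold (0.92 ± 0.0409, adjusted p = 1.05e-20). In 4T1R1 and 4T1R2 its log2 change was the largest of the 10 members, while in 4T1 it was second to Hsp90aa1. The difference from 4T1 was -0.28 ± 0.0605 in 4T1R1 (adjusted p = 8.29e-04) and -0.81 ± 0.0603 in 4T1R2 (adjusted p = 5.79e-14), and 4T1R2 differed from 4T1R1 by -0.53 ± 0.0579 (adjusted p = 2.4e-08). With total counts alone as the scale the 4T1R1 difference was -0.13 and was not called (adjusted p = 0.142, range over 27 alternatives 1.35e-06 to 0.142).

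Stip1 (ENSMUSG00000024966.9, chromosome 19, 7020702 to 7039967, minus strand) encodes the adaptor between HSP70 and HSP90. Levels were 340.5, 334.9 and 327.6 CPM in untreated and 687.2 and 719.6 CPM in treated 4T1, 308.5, 324.7 and 310.6 CPM and then 481.7, 485.7 and 490.4 CPM in 4T1R1, and 364.1, 351 and 350.9 CPM and then 496.3, 495.9 and 483.7 CPM in 4T1R2. The treated libraries of both selected populations overlapped and lay between the untreated and treated 4T1 libraries. The log2 change was 1.07 ± 0.0302, 0.63 ± 0.0277 and 0.47 ± 0.0276 in 4T1, 4T1R1 and 4T1R2 (adjusted p = 8.06e-29, 2.71e-21 and 1.02e-16). It was smaller than in 4T1 by a log2 difference of -0.45 in 4T1R1 and -0.60 in 4T1R2 (adjusted p = 4.42e-11 and 3.14e-15). The difference of -0.16 between 4T1R2 and 4T1R1 (adjusted p = 0.0188) was lost without 4T1R1 untreated replicate 1 (-0.14, adjusted p = 0.0525), 4T1R1 treated replicate 3 (-0.15, adjusted p = 0.0575), 4T1R2 untreated replicate 1 (-0.14, adjusted p = 0.063) or 4T1R2 treated replicate 3 (-0.15, adjusted p = 0.0687), and the range over 27 alternatives was 4.05e-04 to 0.0687.

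Fkbp4 (ENSMUSG00000030357.10, chromosome 6, 128429735 to 128438677, minus strand) encodes FKBP52, an immunophilin of steroid receptor complexes. It went from 250.4, 264 and 270.8 CPM to 488.9 and 503.9 CPM in 4T1, from 270.7, 271.4 and 269.3 CPM to 403.7, 422.2 and 423.9 CPM in 4T1R1, and from 289.2, 281.1 and 281.4 CPM to 394.2, 380.1 and 392.1 CPM in 4T1R2. The untreated libraries of all populations lay within 250.4 to 289.2 CPM, and the treated groups did not overlap each other. The log2 change was 0.92 ± 0.0322, 0.62 ± 0.0294 and 0.45 ± 0.0294 (adjusted p = 1.67e-25, 2.56e-20 and 2.41e-15). Against 4T1 the response was lower by -0.30 in 4T1R1 and -0.47 in 4T1R2 (adjusted p = 1.7e-06 and 3.61e-11). The 4T1R2 response was also below that of 4T1R1, by -0.17 ± 0.0415 (adjusted p = 0.0172), which was lost without 4T1R1 treated replicate 3 (-0.16, adjusted p = 0.0627) or 4T1R2 untreated replicate 1 (-0.16, adjusted p = 0.052), with a range of 3.59e-04 to 0.0627 over 27 alternatives.

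Fkbp5 (ENSMUSG00000024222.17, chromosome 17, 28399094 to 28517527, minus strand) encodes FKBP51, the paralogous immunophilin, and is a known target of the glucocorticoid receptor. Unlike Fkbp4 it showed little response. Its levels were 102.4, 105.7 and 97.08 CPM in untreated and 104.7 and 99.98 CPM in treated 4T1. In 4T1R1 they were 95.99, 89.64 and 95.04 CPM untreated and 97.35, 100.6 and 96.79 CPM treated, and in 4T1R2 75.93, 76.59 and 73.97 CPM untreated and 88.14, 80.32 and 80.91 CPM treated. The log2 change was 0.01 ± 0.0453 in 4T1 (95% interval -0.081 to 0.102, adjusted p = 0.891) and 0.07 ± 0.0410 in 4T1R1 (-0.013 to 0.153, adjusted p = 0.215). Its rise of 0.14 ± 0.0422 in 4T1R2 passed the threshold (adjusted p = 0.0263). That call was lost without 4T1R2 treated replicate 1 (0.09, adjusted p = 0.241), without 4T1R2 untreated replicate 1, 2 or 3 (0.14, 0.15 and 0.13, adjusted p = 0.0611, 0.0516 and 0.0971) and with total counts alone (0.09, adjusted p = 0.176), with a range of 0.0147 to 0.241 over 27 alternatives. None of the 3 differences between the responses passed the threshold (0.06, 0.13 and 0.07, adjusted p = 0.574, 0.16 and 0.624), and with total counts alone the differences from 4T1 were called higher in 4T1R1 (0.21, adjusted p = 0.00989) and 4T1R2 (0.20, adjusted p = 0.0223).

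Ppid (ENSMUSG00000027804.13, chromosome 3, 79591342 to 79603650, plus strand) encodes cyclophilin 40, the third immunophilin of these complexes. It held 205.6, 191.5 and 197.1 CPM in untreated and 276.2 and 293.3 CPM in treated 4T1, 160.6, 155.2 and 155.6 CPM and then 198.5, 197.6 and 204.6 CPM in 4T1R1, and 217.7, 214.2 and 212.9 CPM and then 257.1, 261.8 and 251.8 CPM in 4T1R2. Treated 4T1R1 only reached the range of untreated 4T1, and untreated 4T1R1 lay below that range. The log2 change was 0.52 ± 0.0347, 0.35 ± 0.0322 and 0.26 ± 0.0315 (adjusted p = 4.53e-16, 3.02e-11 and 1.13e-07). It was smaller than in 4T1 by -0.17 in 4T1R1 (adjusted p = 0.00733) and -0.27 in 4T1R2 (adjusted p = 3.91e-05), and the 4T1R2 and 4T1R1 responses differed by -0.09 (95% interval -0.183 to -0.001, adjusted p = 0.321). The 4T1R1 difference was lost without 4T1 treated replicate 3 (-0.13, adjusted p = 0.137) and with total counts alone (-0.02, adjusted p = 0.792), with a range of 0.00244 to 0.792 over 27 alternatives. With total counts alone the difference between 4T1R2 and 4T1R1 was called (-0.17, adjusted p = 0.0372).

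Ptges3 (ENSMUSG00000071072.12, chromosome 10, 128058954 to 128077272, plus strand) encodes p23, which stabilises the closed state of HSP90. Its levels were 366.8, 324.2 and 335.4 CPM in untreated and 461 and 470.9 CPM in treated 4T1, 270.1, 237.8 and 284.8 CPM and then 383.2, 384.2 and 386.3 CPM in 4T1R1, and 323.7, 325.2 and 316.5 CPM and then 396.9, 398.5 and 372.5 CPM in 4T1R2. It was the only member whose rise was not smaller in 4T1R1 than in 4T1 among those that rose in all populations: the log2 change was 0.45 ± 0.0442 in 4T1 (adjusted p = 5.18e-11) and 0.54 ± 0.0405 in 4T1R1 (adjusted p = 8.66e-14), a difference of 0.10 with a 95% interval of -0.026 to 0.217 (adjusted p = 0.308). With total counts alone that difference was called higher, at 0.24 (adjusted p = 0.00382, range over 27 alternatives 0.00382 to 0.803). In 4T1R2 the change was 0.27 ± 0.0403 (adjusted p = 4.31e-06), below 4T1R1 by -0.27 ± 0.0571 (adjusted p = 0.0053). Its difference from 4T1 of -0.17 ± 0.0600 was called (adjusted p = 0.0418), but 12 of 27 alternatives moved it past the threshold, with a range of 0.00259 to 0.309. Among these were DESeq2 (adjusted p = 0.19), RLE scaling (0.0502) and the replicate block (0.0701), and leaving out any of 4T1 untreated replicates 2 and 3 (0.127 and 0.0995), 4T1 treated replicates 2 and 3 (0.0844 and 0.203), 4T1R2 untreated replicates 1, 2 and 3 (0.0765, 0.0882 and 0.0582) and 4T1R2 treated replicate 3 (0.115).

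Cdc37 (ENSMUSG00000019471.10, chromosome 9, 21133222 to 21149982, minus strand) encodes the adaptor that loads protein kinases onto HSP90, and it was the member with the flattest profile. It stood at 205.7, 221.8 and 222.7 CPM in untreated and at 220 and 227.8 CPM in treated 4T1, where the groups overlapped. In 4T1R1 it was at 229.3, 243.8 and 223 CPM untreated and at 213.5, 214.6 and 209.1 CPM treated, and in 4T1R2 at 253.3, 245.2 and 251 CPM untreated and 244.7, 242.1 and 257.1 CPM treated. The log2 change was 0.05 ± 0.0379 in 4T1 (95% interval -0.030 to 0.123, adjusted p = 0.375) and -0.01 ± 0.0338 in 4T1R2 (-0.080 to 0.057, adjusted p = 0.89). In 4T1R1 it fell by 0.13 on the log2 scale (SE 0.0340, adjusted p = 0.00395). The difference of response between 4T1R1 and 4T1, -0.17 ± 0.0509 (adjusted p = 0.0128), was lost without 4T1 untreated replicate 1 (-0.14, adjusted p = 0.0571), without 4T1 treated replicate 3 (-0.15, adjusted p = 0.114) and with total counts alone (-0.02, adjusted p = 0.794), with a range of 0.00387 to 0.794 over 27 alternatives. The other 2 differences did not pass (-0.06 and 0.12, adjusted p = 0.502 and 0.221).

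**Figure D3:**
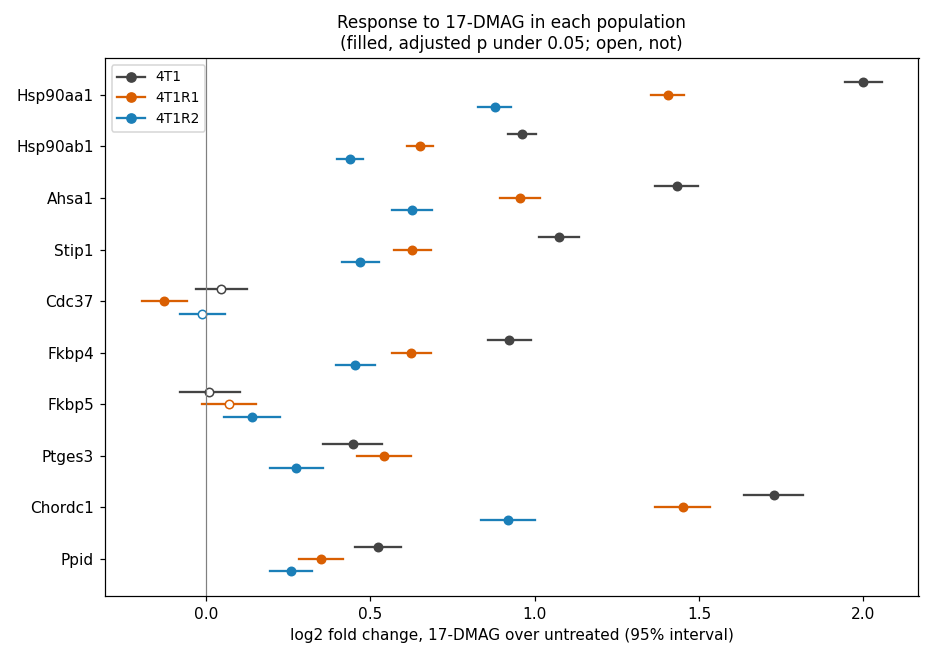
Log2 fold change of treated over untreated libraries (horizontal axis) with 95% intervals for the 10 genes (vertical axis) in 4T1, 4T1R1 and 4T1R2, filled circles for an adjusted p under 0.05 and open circles otherwise. The estimates of Hsp90aa1, Hsp90ab1, Ahsa1, Stip1, Fkbp4, Chordc1 and Ppid step down from 4T1 to 4T1R1 to 4T1R2. Cdc37 and Fkbp5 lie near 0. The step of Ppid from 4T1R1 to 4T1R2 is not called, and those of Stip1 and Fkbp4 depend on single libraries.

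As a description, the log2 change of a member was divided by its log2 change in 4T1, for the 8 that rose in all 3 populations. In 4T1R1 this gave 58.5% for Stip1, 70.2% for Hsp90aa1, 84.0% for Chordc1 and 121% for Ptges3, with a median of 67.5%. In 4T1R2 it gave 43.7% for Stip1, 43.9% for Hsp90aa1 and 43.8% for Ahsa1, 53.2% for Chordc1 and 61.7% for Ptges3, with a median of 47.3%. Ptges3 and Chordc1 kept the largest fractions in both selected populations. The 3 responses use separate libraries, but the fractions for both selected populations share the 4T1 response.

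Tested over all genes, the response in 4T1R1 was lower than that in 4T1 for 8 members and higher for none, where 9.08% of all genes were called lower and 9.16% higher. The median difference over the members was -0.288. For 4T1R2 against 4T1 it was again 8 lower and none higher, with 8.16% of all genes lower and 9.62% higher, and the median was -0.497. Between 4T1R2 and 4T1R1, 7 members had a smaller response in 4T1R2 and none a larger one, where 0.918% of all genes were called lower and 1.21% higher, with a median of -0.192. At an unadjusted p under 0.05 in edgeR, 0 members had a larger response in the first of these comparisons, and 1 each in the second (Fkbp5) and the third (Cdc37), and DESeq2 called 0 in all 3. These comparisons share libraries and are not independent of each other. Scaling by total counts alone moved the median difference of all genes by 0.15 for 4T1R1 minus 4T1, by 0.069 for 4T1R2 minus 4T1 and by -0.08 for 4T1R2 minus 4T1R1. Over all genes 3.10% were then called lower and 26.2% higher in the comparison of 4T1R1 with 4T1, 4.67% and 15.5% in that of 4T1R2 with 4T1, and 4.51% and 0.452% in that of 4T1R2 with 4T1R1. The members called were 5 lower and 2 higher, 7 lower and 1 higher, and 8 lower and 0 higher in the same order.

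**Figure D4:**
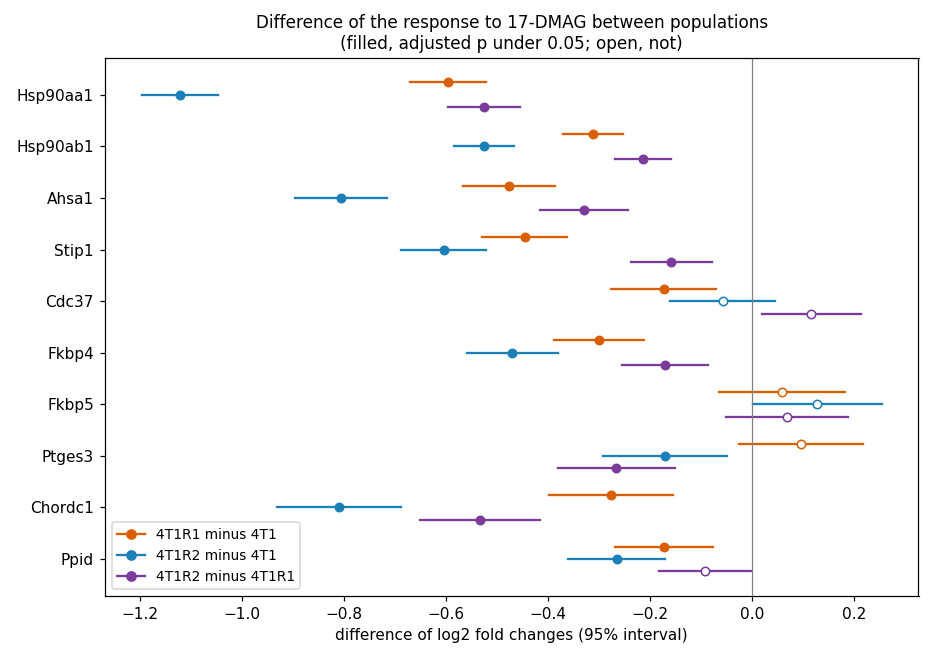
Difference of log2 fold changes between populations (horizontal axis) with 95% intervals for the 10 genes (vertical axis), filled circles for an adjusted p under 0.05 and open circles otherwise. The largest differences are those of Hsp90aa1, Chordc1 and Ahsa1 for 4T1R2 minus 4T1, at -1.12, -0.81 and -0.80, and Fkbp5 is not called in any comparison.

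Without the drug in the final step, the selected populations differed from 4T1 in different ways. In 4T1R1 7 members were lower than in 4T1 and 1 was higher, where 27.5% of all genes were called lower and 25.2% higher, so differences between these populations were widespread. The falls were small, with a median over the members of -0.126. The largest were those of Ptges3 (-0.37 ± 0.0406, adjusted p = 2.88e-10), Ppid (-0.33 ± 0.0322, adjusted p = 1.12e-11) and Hsp90ab1 (-0.24 ± 0.0195, adjusted p = 7.57e-14), and Hsp90aa1 fell by 0.13 (adjusted p = 2.07e-05). Chordc1 (-0.17), Fkbp5 (-0.12) and Stip1 (-0.09) were also lower, Ahsa1 (-0.07, adjusted p = 0.0612) and Fkbp4 (0.05, adjusted p = 0.186) were not called, and Cdc37 was higher by 0.10 (adjusted p = 0.0144). The call of Cdc37 was lost without 4T1 untreated replicate 1 (0.06, adjusted p = 0.153) or 4T1R1 untreated replicate 2 (0.06, adjusted p = 0.132), with a range of 0.00305 to 0.153 over 27 alternatives. The call of Fkbp5 was lost without 4T1 untreated replicate 2 (-0.09, adjusted p = 0.0891) or 4T1R1 untreated replicate 2 (-0.09, adjusted p = 0.0794), with a range of 0.00485 to 0.0891, and Ahsa1 became lower without 4T1 untreated replicate 1 (-0.08, adjusted p = 0.045, range 0.045 to 0.325). Stip1 was not called when only the groups compared were fitted (-0.08, adjusted p = 0.0605, range 0.00111 to 0.086). With total counts alone, Stip1 (-0.06, adjusted p = 0.086) and Fkbp5 (-0.09, adjusted p = 0.0613) lost their calls. Fkbp4 was then called higher (0.07, adjusted p = 0.0484, range 0.0484 to 0.697). On that scale 27.3% of all genes were called higher and 24.4% lower, and the median of all genes moved by 0.026.

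In untreated 4T1R2 7 members were higher than in 4T1 and 1 was lower, where 25.6% of all genes were called higher and 26.9% lower, with a median of 0.118. Hsp90aa1 led with 0.37 ± 0.0250 (adjusted p = 4.85e-16), while Hsp90ab1 did not pass (-0.02, 95% interval -0.064 to 0.015, adjusted p = 0.304). Cdc37 (0.21 ± 0.0341, adjusted p = 2.38e-06) and Ahsa1 (0.19 ± 0.0310, adjusted p = 1.67e-06) followed, and Chordc1, Ppid, Fkbp4 and Stip1 were higher by 0.14, 0.12, 0.12 and 0.09. Fkbp5 was lower by -0.43 ± 0.0420 (adjusted p = 1.53e-11), the largest difference of any member between untreated 4T1R2 and untreated 4T1, at 73.97 to 76.59 CPM against 97.08 to 105.7 CPM. Ptges3 was at -0.09 (adjusted p = 0.0648) and became a call without 4T1 untreated replicate 2 (-0.13, adjusted p = 0.0136) or 4T1R1 untreated replicate 2 or 3 (-0.09, adjusted p = 0.015 and 0.0392), with a range of 0.00807 to 0.499 over 27 alternatives. Chordc1 lost its call without 4T1 untreated replicate 2 (0.11, adjusted p = 0.0501, range 3.67e-04 to 0.0501). Stip1 lost it without 4T1 untreated replicate 3 (0.07, adjusted p = 0.0522) or 4T1R2 untreated replicate 1 (0.07, adjusted p = 0.0573, range 0.00201 to 0.0573).

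**Figure D5:**
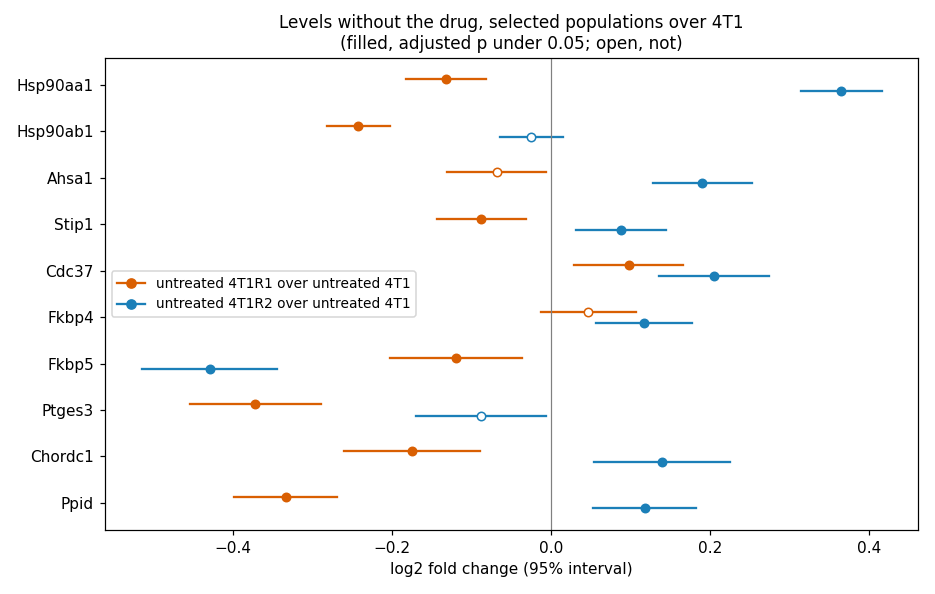
Log2 fold change of untreated 4T1R1 and untreated 4T1R2 over untreated 4T1 (horizontal axis) with 95% intervals for the 10 genes (vertical axis), filled circles for an adjusted p under 0.05 and open circles otherwise. Hsp90aa1 lies at 0.37 in 4T1R2 and at -0.13 in 4T1R1, and Fkbp5 is lower in both, at -0.43 and -0.12.

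Compared directly, untreated 4T1R2 exceeded untreated 4T1R1 for 8 members and was below it for 1, where 19.7% of all genes were called higher and 19.0% lower, with a median of 0.238. Hsp90aa1 (0.50 ± 0.0250, adjusted p = 1.29e-19), Ppid (0.45 ± 0.0322, adjusted p = 7.41e-15) and Chordc1 (0.31 ± 0.0426, adjusted p = 1.04e-07) differed most, and Fkbp5 was lower (-0.31 ± 0.0421, adjusted p = 1.06e-07). Cdc37 was higher by 0.11 (adjusted p = 0.0102) and lost its call without 4T1R1 untreated replicate 3 (0.08, adjusted p = 0.0897, range 6.19e-04 to 0.0897). Fkbp4 was at 0.07 (adjusted p = 0.0581) and was called without 4T1 untreated replicate 1 (0.07, adjusted p = 0.042, range 0.042 to 0.202).

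With the drug present, both selected populations held less of most members than treated 4T1. Treated 4T1R1 was lower for 8 members and higher for none, where 27.6% of all genes were called lower and 25.1% higher, with a median of -0.479. None was higher there by DESeq2 or at an unadjusted p under 0.05 either. Treated 4T1R2 was lower for 9 and higher for 1, where 28.0% of all genes were called lower and 25.8% higher, with a median of -0.434. Hsp90aa1 was lower by -0.73 ± 0.0273 in 4T1R1 and by -0.76 ± 0.0273 in 4T1R2 (adjusted p = 1.62e-24 and 3.48e-25), and Hsp90ab1 by -0.55 ± 0.0216 in both (adjusted p = 5.63e-24 and 5.22e-24). Cdc37 was the member that stood higher in treated 4T1R2, by 0.15 ± 0.0378 (adjusted p = 0.00101). Ppid was lower in treated 4T1R2 by -0.15 (adjusted p = 3.68e-04), which was lost without 4T1 treated replicate 3 (-0.10, adjusted p = 0.0715) and with total counts alone (-0.06, adjusted p = 0.202), with a range of 1.38e-04 to 0.202 over 27 alternatives. With total counts alone 42.9% of all genes were called higher and 13.8% lower in 4T1R1, and 34.0% and 20.5% in 4T1R2, with shifts of the median of all genes of 0.18 and 0.088. Cdc37 (-0.08) and Fkbp5 (-0.06), not called in treated 4T1R1, turned to 0.10 and 0.12 and were called higher on that scale (adjusted p = 0.0284 and 0.0331, ranges 0.0284 to 0.484 and 0.0331 to 0.445), and 6 members remained lower.

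Relative to the isoforms, the co-chaperone transcripts were fewer in the treated libraries, a description with no test. Summed per kilobase of exon, the 8 co-chaperones amounted to 0.327 ± 0.0078 (SD, n = 3) of the summed isoforms in untreated 4T1 and to 0.234 ± 0.0010 (SD, n = 2) after treatment. The ratio went from 0.342 ± 0.0051 to 0.275 ± 0.0013 in 4T1R1 and from 0.318 ± 0.0018 to 0.278 ± 0.00067 in 4T1R2. Per kilobase of coding sequence it went from 0.743 to 0.479, from 0.753 to 0.582 and from 0.702 to 0.589. In every population the treated libraries lay below the untreated ones on both lengths. Within untreated 4T1, levels per kilobase of exon ranged from 10.7 for Fkbp5 and 15.8 for Chordc1 through 154 for Ptges3 and 159 for Stip1 to 443 for Hsp90aa1 and 1185 for Hsp90ab1. The distances between genes depended on the length used. Per kilobase of coding sequence Fkbp5 was at 74.4, Chordc1 at 119, Stip1 at 205, Ptges3 at 713, Hsp90aa1 at 792 and Hsp90ab1 at 1636.

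Of 32 further HSP90 co-chaperones and regulators, 31 passed the filter and Unc45b did not. In 4T1 10 of them rose and 1 fell, in 4T1R1 9 rose and 1 fell, and in 4T1R2 6 rose and none fell, with medians of 0.033, 0.0385 and 0.04. No gene of the list was called lower in 4T1R2 by DESeq2 either, and 1 was lower there at an unadjusted p under 0.05. Most of the list was not called in either direction. Over all genes tested, 18.4% rose and 17.9% fell in 4T1, 13.9% and 14.3% in 4T1R1, and 6.18% and 4.35% in 4T1R2. The paralogous activator Ahsa2 rose 4.34-fold, 3.03-fold and 2.22-fold in 4T1, 4T1R1 and 4T1R2 (adjusted p = 1.13e-29, 4.59e-25 and 5.74e-19), against 2.70-fold, 1.94-fold and 1.54-fold for Ahsa1. Its levels went from 27.74 to 32.02 CPM in untreated to 125.7 and 132 CPM in treated 4T1. Cacybp, which encodes a SIAH1-interacting protein that binds HSP90, rose by 1.07, 0.86 and 0.58 (adjusted p = 1.02e-21, 1.01e-18 and 6.72e-13). St13, the HSP70-interacting protein Hip, rose by 0.76, 0.61 and 0.41 (adjusted p = 1.16e-21, 8.12e-19 and 3.14e-13). All 3 had smaller responses in 4T1R1 and 4T1R2 than in 4T1, with differences of -0.52 and -0.97 for Ahsa2, -0.21 and -0.50 for Cacybp and -0.16 and -0.35 for St13 (adjusted p from 2.32e-12 to 0.0195). Of the 31 genes, 6 had a smaller and 1 a larger response in 4T1R1 than in 4T1, with a median difference of -0.0202. Over all genes 9.08% were called lower and 9.16% higher. For 4T1R2 against 4T1 the counts were 8 and 0, with a median of -0.0158, against 8.16% and 9.62% of all genes. Itgb1bp2, the CHORD-domain paralog melusin of muscle, fell by 0.91 in 4T1 (SE 0.309, adjusted p = 0.0172) at 32 to 66 counts per library.

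The HSP90 paralogs of other compartments moved little. Hsp90b1, the chaperone of the endoplasmic reticulum, rose by 0.21, 0.13 and 0.21 in 4T1, 4T1R1 and 4T1R2 (adjusted p = 4.03e-06, 0.00196 and 7.33e-06). The mitochondrial Trap1 rose in 4T1 by 0.16 (adjusted p = 0.00128) and was at 0.01 and 0.00 in the others (adjusted p = 0.873 and 0.979). Hsf1, the regulator of the heat shock response, was not called in any population (-0.07, -0.10 and 0.01, adjusted p = 0.32, 0.135 and 0.957). Nr3c1, the glucocorticoid receptor and a client of HSP90, fell by 0.25 in 4T1 (adjusted p = 3.68e-05) and was at 0.03 and 0.01 in 4T1R1 and 4T1R2 (adjusted p = 0.581 and 0.944). Of 9 tested glucocorticoid-responsive genes, 4 rose and 4 fell in 4T1, 1 rose and 7 fell in 4T1R1, and 1 rose and 2 fell in 4T1R2. Over all genes tested, 18.4% rose and 17.9% fell in 4T1, 13.9% and 14.3% in 4T1R1, and 6.18% and 4.35% in 4T1R2.

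The HSP70 and HSP110 genes, partners of Stip1 in client transfer, showed a wider span. Of 8, 6 rose in 4T1 and 5 in each selected population with none lower, and the medians were 1.56, 0.509 and 0.665. DESeq2, and edgeR at an unadjusted p under 0.05, also called 0 of them lower. Over all genes tested, 18.4% rose and 17.9% fell in 4T1, 13.9% and 14.3% in 4T1R1, and 6.18% and 4.35% in 4T1R2. Hspa1b rose by 5.11 ± 0.049, 3.23 ± 0.048 and 2.29 ± 0.047 (adjusted p = 1.8e-45, 2.87e-38 and 6.17e-33), the constitutive Hspa8 by 2.32, 1.95 and 1.51, and Hsph1 by 2.72, 1.75 and 1.18. Hspa1a and Hspa1b are near-identical, so reads may be split between them. Among 10 DNAJ genes, whose products deliver substrates to HSP70, 7 rose in each population and 1, Dnajb9, fell in 4T1 (DESeq2 called 0 lower in 4T1R1 and 4T1R2, where 1 each was lower at an unadjusted p under 0.05), with medians of 0.886, 0.554 and 0.353.

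Over the 6 group means, the levels of the members were compared with those of 10320 genes by Pearson's r, as a description, since the groups share controls and populations. Closest to Hsp90aa1 were Tprkb (r = 0.997), Jmjd6 (0.996) and Nap1l1 (0.996), and closest to Hsp90ab1 were Nkiras1 (0.997), Twistnb (0.995) and Zfp770 (0.993). Jmjd6 went from 64.5 to 99.2 CPM in 4T1, from 64.4 to 83.8 CPM in 4T1R1 and from 72.4 to 85.2 CPM in 4T1R2. In 4T1 Tprkb went from 21.3 to 28.6 CPM and Nap1l1 from 611 to 674 CPM, so a high r does not mean a change of like size. The genes closest to Fkbp5 were Nrg2 (0.997), Twsg1 (0.997) and Gbe1 (0.994), which were likewise lowest in untreated 4T1R2. Among the members, r with Hsp90aa1 was 0.998 for Ahsa1, 0.991 for Chordc1, 0.990 for Stip1, 0.988 for Fkbp4, 0.974 for Hsp90ab1, 0.923 for Ptges3 and 0.836 for Ppid, against 0.200 for Fkbp5 and -0.112 for Cdc37.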

How the data were processed

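Stranded libraries were made from total RNA after removal of ribosomal RNA, and 18 libraries were deposited. Per the submitters' processing notes and the study's methods, the authors demultiplexed with bcl2fastq 2.20, aligned to mm10/GRCm38 with STAR and assigned reads to genes by featureCounts from Subread 1.6.2. The deposited values are whole-number counts without normalization. Use of strand and of reads with several matches is not given in the sources used here. Between 65.6% and 70.8% of counts from 1 to 12 were even, so both reads of a pair seem to count, and a count is a read. Rn45s took 9.54% to 15.6% of counts.

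Counts were fitted with edgeR 4.0.16 in R 4.3.3 (filterByExpr, TMM, 6 group means, quasi-likelihood test, two-sided, Benjamini-Hochberg over 13507 genes, threshold 0.05; common biological coefficient of variation 0.0376). The averaged pair of treated 4T1 libraries left 17 libraries. The series text calls the replicates biological, and p-values measure the spread between them. Positions and lengths came from GENCODE vM21, and promoters from RefSeq on GRCm38.p6. The code was tested on simulated data. DESeq2 1.42.0, RLE, total counts, other filters, fits of the groups compared, the replicate block, 18 separate libraries, Rn45s left out and each library left out were the alternatives. The 10 members and the lists were chosen with earlier results of these data known. Named beside the members were other co-chaperones past the threshold with a log2 change of at least 0.5 in any response, Hsp90b1, Trap1, Hsf1 and Nr3c1, and the 3 genes closest to Hsp90aa1, Hsp90ab1 and Fkbp5 by r. HSP70 and DNAJ genes named singly were chosen after their values were seen.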

Additional observations from a re-analysis of the deposited data

Results flagged for a closer look

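The response to 17-DMAG differed between populations for 9 of the 10 members in at least 1 test of the difference itself (edgeR's quasi-likelihood test, log2 scale, adjusted p given above). The share of all genes called in at least 1 of these tests was not counted, and the shares for each test are given above. All of the members' differences that were called were negative, which means a smaller rise, or for Cdc37 a fall, in the population named first.

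For 4T1R1 minus 4T1 the difference was -0.60 for Hsp90aa1, -0.31 for Hsp90ab1, -0.48 for Ahsa1, -0.45 for Stip1, -0.17 for Cdc37, -0.30 for Fkbp4, -0.28 for Chordc1 and -0.17 for Ppid. For 4T1R2 minus 4T1 it was -1.12 for Hsp90aa1, -0.52 for Hsp90ab1, -0.80 for Ahsa1, -0.60 for Stip1, -0.47 for Fkbp4, -0.17 for Ptges3, -0.81 for Chordc1 and -0.27 for Ppid. For 4T1R2 minus 4T1R1 it was -0.53 for Hsp90aa1, -0.21 for Hsp90ab1, -0.33 for Ahsa1, -0.16 for Stip1, -0.17 for Fkbp4, -0.27 for Ptges3 and -0.53 for Chordc1. The comparisons share libraries. The calls of Cdc37 and Ppid for 4T1R1 minus 4T1, of Ptges3 for 4T1R2 minus 4T1, and of Stip1 and Fkbp4 for 4T1R2 minus 4T1R1 depended on single libraries, and that of Chordc1 for 4T1R1 minus 4T1 on the scaling. A cause for these differences was not tested.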

How the results depend on the processing

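Of 2970 member values recomputed over 27 alternatives and 11 comparisons, 2903 kept their direction and their side of the threshold, 44 lost a call and 15 gained one with the same sign, and 8 turned sign. All 8 were values of Cdc37 or Fkbp5 that were not called as reported. Of these, 6 stayed without a call, and 2 became calls, those of Cdc37 (0.10) and Fkbp5 (0.12) in treated 4T1R1 against treated 4T1 with total counts alone. On that scale the members called higher became 2 in untreated 4T1R1 against untreated 4T1, by the addition of Fkbp4. They became 2 for treated 4T1R1 against treated 4T1. For the difference of response they became 2 (with 5 lower) for 4T1R1 minus 4T1, and 1 for 4T1R2 minus 4T1. The shifts of all genes on that scale are given above. The members lower in untreated 4T1R2 than in untreated 4T1 became 2 with no filter on low counts and 2 with only the groups compared, in both cases by the addition of Ptges3. When each library was left out in turn, the members called higher in untreated 4T1R1 ran from 0 to 1 and those called lower in untreated 4T1R2 from 1 to 2. Without replicate 1 or 2 of treated 4T1 the other of that pair stood alone, and without replicate 3 the pair was the only sample, assumed to vary like the other groups. Per coding length, the ratio of Hsp90aa1 to Hsp90ab1 was 0.484 and 0.994 in untreated and treated 4T1, 0.523 and 0.881 in 4T1R1, and 0.634 and 0.861 in 4T1R2.

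Over all genes, calls moved by over 1.5 times under total counts alone as given above. They also did so in the lower calls of the 4T1R2 response, from 588 to 376 without untreated replicate 2 and to 367 without treated replicate 1. Without 4T1 treated replicate 3, the response of 4T1R1 minus 4T1 went from 1237 higher and 1227 lower to 798 and 787, and that of 4T1R2 minus 4T1 from 1102 lower to 668. For 4T1R2 minus 4T1R1 the 164 higher and 124 lower calls became 283 higher with no filter, 104 and 73 without 4T1R1 treated replicate 1, 87 and 68 without 4T1R2 treated replicate 3, and 98 higher without 4T1R2 untreated replicate 2.

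The replicate numbers do not pair the samples: the correlation of deviations between libraries of 1 number ran from -0.0507 to 0.0476, and 3 of 18 libraries were closest to their own number. With the replicate block, the difference of the Ptges3 response between 4T1R2 and 4T1 was -0.15 and was not called (adjusted p = 0.0701), and no other member's call changed.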
